A study of Caenorhabditis elegans with 22 samples.

Results

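The transcriptional response of wild-type Caenorhabditis elegans embryos to osmotic stress was measured in 5 of the 22 libraries of the series. These were the wild-type libraries prepared alongside the ssu-1 mutants, 3 from N2 embryos exposed to 500 mM NaCl for 3 h and 2 from N2 embryos kept at 50 mM NaCl for 3 h, chosen by genotype, salt and experiment in the sample titles. N2 is the Bristol laboratory wild type, carries no transgene here and received no agent other than the salt of the agar. Embryos were collected from adults and placed on the plates as a population, and no stage selection is given in the sources used here. The fit also held 5 ssu-1 libraries of the same experiment (3 at 500 mM and 2 at 50 mM NaCl). They lent their spread and counted in the filter on low FPKM that set which genes were tested, but did not enter the changes. Their RNA-seq methods name the allele ssu-1(fc73), whereas their labels list several alleles and a transgene.

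Embryos in concentrated salt lose water by osmosis. Animals counter this by making organic osmolytes, which raise the solute content of the cell without disturbing proteins, and in C. elegans the main one is glycerol. High salt is also known to arrest development at hatching through reduced insulin-like signalling, which frees the FOXO transcription factor DAF-16 to enter the nucleus, and through the cytosolic sulfotransferase SSU-1.

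Expression was given as FPKM, fragments per kilobase of transcript scaled to the mapped fragments of the library, so levels can be compared between genes. Spacing of the lowest FPKM values put the depth at roughly 22100000, 28800000 and 23400000 fragments in the 500 mM libraries and 21600000 and 22800000 in the 50 mM libraries. Between 12870 and 13285 genes reached 1 FPKM in each. Log2 values correlated at 0.9917 to 0.9941 among the 500 mM libraries and at 0.992 between the 50 mM pair, against 0.9457 to 0.9719 across salt, and replicate 2 at 50 mM was closer than replicate 1 to each 500 mM library. A list of 36 yolk, sperm and adult cuticle genes summed to 4.2 to 6.05 FPKM at 500 mM and 3.46 to 5.25 FPKM at 50 mM, so these transcripts were close to 0 in all 5 libraries.

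Of 13924 genes tested with limma on log2(FPKM + 1), 3526 (25.3%) were higher at 500 mM NaCl and 3620 (26%) were lower at a Benjamini-Hochberg adjusted p under 0.05, which is called passing the test below. The median change over all tested genes was -0.01 on the log2 scale. Genes that passed and changed by more than 1 log2 unit are called induced or repressed: 403 genes (2.89%) were induced and 357 (2.56%) were repressed. Leaving out 1 library at a time gave 299 to 474 induced and 267 to 514 repressed genes, with the fewest induced without replicate 1 at 500 mM and the fewest repressed without replicate 1 at 50 mM. Fold changes on the log2(FPKM + 1) scale understate the change of genes with low FPKM.

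The 2 classes differed in level and in size. Induced genes had a median of 10.8 FPKM at 500 mM and 2.75 FPKM at 50 mM, and repressed genes had a median of 2.26 FPKM at 500 mM and 8.32 FPKM at 50 mM. Changes beyond 4-fold were found for 67 induced and 43 repressed genes, and changes beyond 8-fold for 36 induced and 6 repressed genes. Of the induced genes, 395 code for protein, 6 are annotated as pseudogenes and 2 as non-coding RNAs, and 183 have only a sequence name.

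**Figure D1:**
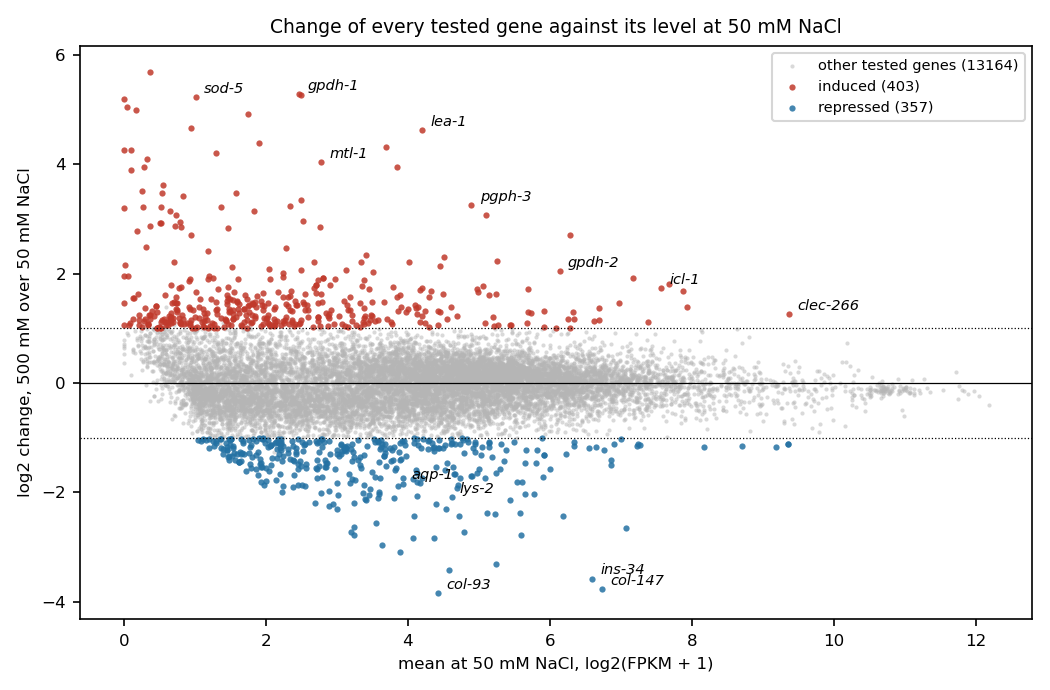
Change of each tested gene (vertical axis, log2 of 500 mM over 50 mM NaCl) against its mean level at 50 mM (horizontal axis, log2(FPKM + 1)), with 403 induced genes in red, 357 repressed genes in blue and dotted lines at a change of 1 log2 unit. The 50 mM values enter both axes, and the rises reach beyond 5 log2 units while no fall reaches 4.

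The 20 genes with the largest rise included genes of osmolyte synthesis, a small heat-shock protein, antioxidants, metal binding and small secreted peptides, and several genes without a known role. At their head stood hsp-16.21 (F08H9.4), a small heat-shock protein of the alpha-crystallin family that keeps unfolding proteins soluble. It had 70.2, 63.9 and 63.5 FPKM at 500 mM NaCl, against 0.24 and 0.35 FPKM at 50 mM, a log2 change of 5.69 (SE 0.22, limma adjusted p = 5.99e-08). D1086.9 had 37.4, 32.2 and 34.2 FPKM against 0.11 and 0.14 FPKM, a log2 change of 4.98, and clx-1 had 37.8, 28.7 and 33.01 FPKM against 0.03 FPKM in each 50 mM library, a log2 change of 5.04. In these genes the 500 mM libraries lay close together and far above both 50 mM libraries. F15E6.4 reached 32.1, 36.04 and 38.5 FPKM and C37A5.5 reached 24.3, 16.09 and 15.2 FPKM at 500 mM, and both were listed at 0 in each 50 mM library. The others without a known role were T23F2.4, at 279, 243 and 247 FPKM against 13.7 and 10.2 FPKM, R09E10.13 and C54F6.5. The set also held ant-1.2, a paralogue of the mitochondrial carrier that exchanges ADP for ATP, with 15.04, 15.2 and 14.1 FPKM at 500 mM against 0.14 and 0 FPKM at 50 mM.

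**Figure D2:**
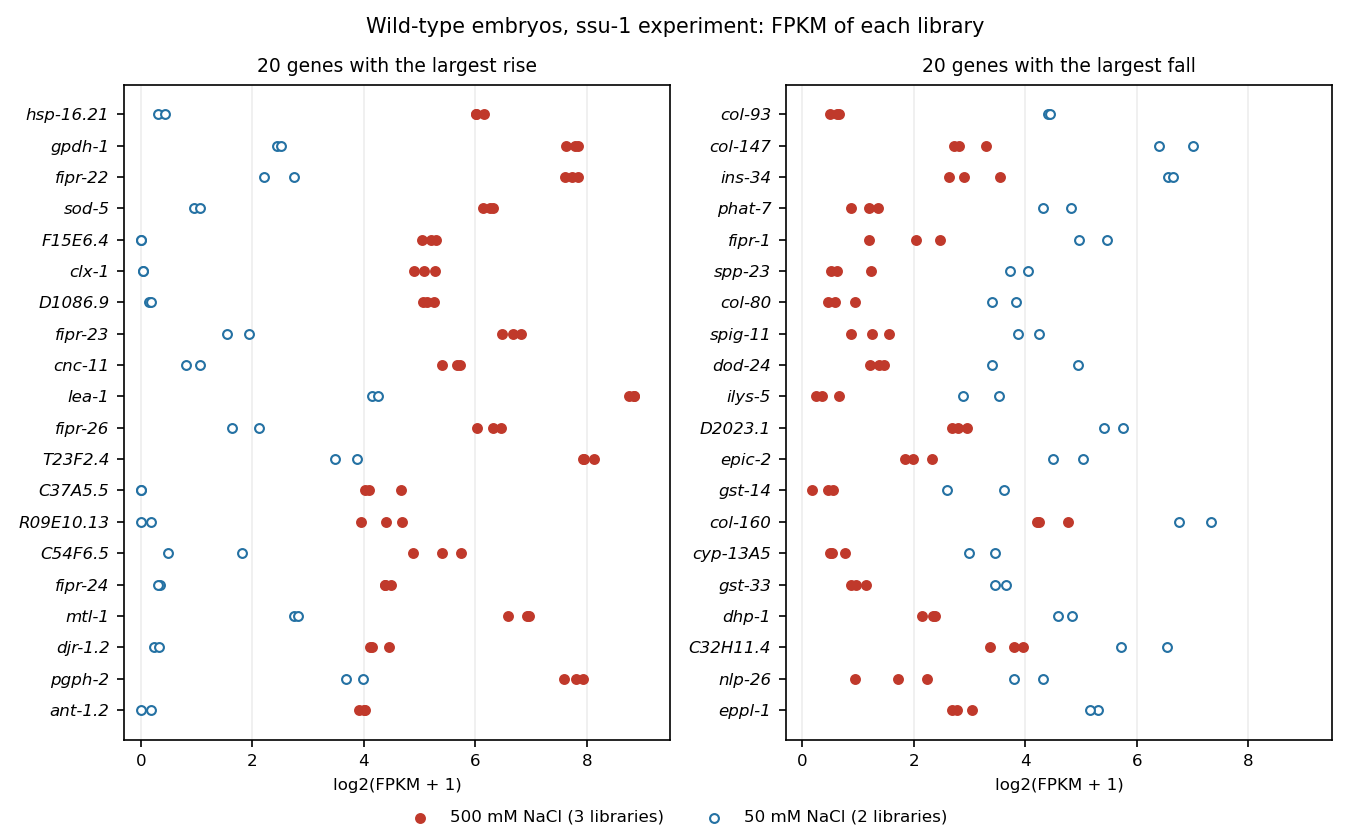
FPKM of the 20 genes with the largest rise (left) and the 20 with the largest fall (right), horizontal axis log2(FPKM + 1), with 1 filled red point for each of 3 libraries at 500 mM NaCl and 1 open blue point for each of 2 libraries at 50 mM NaCl. In each row the points of the salt groups are separate.

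Glycerol synthesis rose as a group. Glycerol is made from the glycolytic intermediate dihydroxyacetone phosphate by a glycerol-3-phosphate dehydrogenase and then a phosphatase. Of 6 tested genes of glycerol synthesis and breakdown, 5 rose and none fell, with a median log2 change of 2.65. The dehydrogenase gene gpdh-1, the rate-limiting step in C. elegans under salt, had 196, 228 and 222 FPKM at 500 mM and 4.42 and 4.70 FPKM at 50 mM, a log2 change of 5.28 (SE 0.09, limma adjusted p = 6.71e-11). Its paralogue gpdh-2 had a higher level at 50 mM and a smaller rise, with 296, 287 and 281 FPKM at 500 mM and 75.2 and 63.5 FPKM at 50 mM (log2 change 2.04, SE 0.07, limma adjusted p = 5.05e-08). Both genes thus ended between 196 and 296 FPKM. The third paralogue, gpdh-3, named for completeness after its values were seen, had 64.8, 68.4 and 68.8 FPKM against 63 and 61.6 FPKM and did not pass (limma adjusted p = 0.105).

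The phosphatase step moved with it. Of the genes related to mammalian phosphoglycolate phosphatase, which also acts on glycerol-3-phosphate, pgph-2 had 224, 245 and 191 FPKM at 500 mM and 14.9 and 11.9 FPKM at 50 mM, a log2 change of 3.94. Transcripts of pgph-3 stood at 237, 342 and 276 FPKM at 500 mM and 32.01 and 25.6 FPKM at 50 mM, a log2 change of 3.25 (SE 0.15, limma adjusted p = 1.65e-07). The glycerol kinase gene R11F4.1, whose product returns glycerol to glycerol-3-phosphate, rose by 0.26 on the log2 scale (SE 0.08, limma adjusted p = 0.0237).

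Trehalose, a disaccharide that protects dry or cold cells, is made by trehalose-6-phosphate synthases and a phosphatase. Of 10 tested genes for trehalose enzymes and the LEA protein, 4 rose and 1 fell (none fell without replicate 1 at 50 mM). The synthase gene tps-1 had 19.4, 19.01 and 20.3 FPKM at 500 mM and 14.4 and 13.02 FPKM at 50 mM (log2 change 0.48, limma adjusted p = 0.000956), whereas the groups overlapped for tps-2 (log2 change 0.02, limma adjusted p = 0.903). The phosphatase gene gob-1 rose by 0.34 on the log2 scale. Among the trehalose enzymes only tps-1 and gob-1 rose and tre-3 fell, where 25.3% of all tested genes rose and 26% fell. The other genes of the list that rose were lea-1 and dur-1. The induced member was lea-1, which encodes a late embryogenesis abundant protein of the kind made by drying seeds and anhydrobiotic animals, with 463, 431 and 458 FPKM at 500 mM and 16.7 and 18.2 FPKM at 50 mM. Of the genes in the table whose names recall dormant states, dur-1 rose by 0.96 on the log2 scale (125, 117 and 135 FPKM against 75.1 and 54.8 FPKM).

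Small heat-shock proteins did not share a direction. Of 15 tested genes, 5 were induced and 5 fell without reaching the repressed class, and their summed level was 1061 to 1212 FPKM at 500 mM and 1286 to 1338 FPKM at 50 mM. Besides hsp-16.21, hsp-16.20 had 17.5, 16.53 and 19.8 FPKM at 500 mM against 0.58 and 1.00 FPKM at 50 mM (log2 change 3.41), and hsp-12.6, a DAF-16 target, had 19.96, 14.7 and 16.08 FPKM against 0.63 and 0.30 FPKM (log2 change 3.61, SE 0.17, limma adjusted p = 2.22e-07). The embryonic gene sip-1 had 176, 112.9 and 76.3 FPKM against 32.3 and 41.7 FPKM, and hsp-12.3 had 39.3, 20.9 and 28.2 FPKM against 6.39 and 7.39 FPKM. The falls were those of hsp-17 (-0.91), hsp-12.2 (-0.73), hsp-43 (-0.61) and hsp-25 (-0.49), all log2 changes, and of 1 further gene.

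Classic heat-inducible genes behaved otherwise. hsp-16.2, the standard reporter of heat shock, had 11.6, 0.66 and 3.48 FPKM at 500 mM and 2.54 and 3.73 FPKM at 50 mM, so the groups overlapped and 1 library at 500 mM, replicate 1, stood above the rest (limma adjusted p = 0.873). The same library was highest for the inducible HSP70 gene F44E5.4, at 58.9, 6.77 and 18.6 FPKM against 13.3 and 12.98 FPKM (limma adjusted p = 0.574). The median of the small heat-shock list was 0.46 on the log2 scale with all libraries and -0.19 without replicate 1 at 500 mM. Constitutive chaperones moved little: of 17 cytosolic chaperones 7 rose and none fell, with a median log2 change of 0.12, and of 15 chaperones of the endoplasmic reticulum 8 rose and none fell, with a median of 0.17. Those counts were 4 and 5 without replicate 1 at 50 mM, and 4 cytosolic genes passed without replicate 3 at 500 mM and 5 reticulum genes without replicate 2 at 50 mM. Neither hsp-4, the BiP homologue that reports unfolded proteins in the reticulum (log2 change 0.10, limma adjusted p = 0.292), nor the mitochondrial hsp-6 (-0.17, limma adjusted p = 0.111) passed, while mitochondrial hsp-60 fell by 0.49 on the log2 scale to 109, 114 and 123 FPKM at 500 mM, against 165 and 161 FPKM at 50 mM.

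Antioxidant genes changed selectively. Superoxide dismutases turn superoxide into hydrogen peroxide, and catalases remove the peroxide. Of 28 tested antioxidant genes, 13 rose and 4 fell, and 4 were induced: sod-5, djr-1.2, sod-3 and ctl-3. The inducible sod-5 had 78.4, 69.4 and 75.8 FPKM at 500 mM and 0.93 and 1.1 FPKM at 50 mM, and mitochondrial sod-3 had 30.2, 26.9 and 34.7 FPKM against 3.06 and 2.1 FPKM (log2 change 3.15, SE 0.16, limma adjusted p = 4.52e-07). The main forms did not pass: sod-1 had 172, 165.6 and 159 FPKM against 179 and 151.5 FPKM, with overlapping groups, and sod-2 had 63.02, 67.2 and 62.0 FPKM against 54.2 and 55.1 FPKM. The DJ-1 homologue djr-1.2 had 20.9, 16.8 and 16.21 FPKM against 0.18 and 0.26 FPKM, and the catalase gene ctl-3 had 37.8, 30.4 and 35.96 FPKM against 9.70 and 5.81 FPKM. Falls were found for 1 of the 28 without replicate 1 at 50 mM and 2 without replicate 3 at 500 mM. Glutathione synthesis, the usual target of the SKN-1 oxidative response, had 0 of 3 genes past the limma test (1 at an unadjusted p under 0.05), and its rate-limiting gcs-1 had 51.4, 48.0 and 49.9 FPKM against 55.1 and 47.2 FPKM.

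Metal handling genes moved in both directions, with 3 of 5 rising and 2 falling. The falls were less stable: only 1 passed without replicate 1 at 500 mM or after quantile normalization. The metallothionein gene mtl-1, whose product binds zinc and cadmium, had 124, 94.7 and 121 FPKM at 500 mM and 5.69 and 6.08 FPKM at 50 mM (log2 change 4.04, SE 0.22, limma adjusted p = 5.65e-07), while its paralogue mtl-2 fell to 3.45, 3.77 and 5.03 FPKM at 500 mM, against 8.37 and 6.33 FPKM at 50 mM. The iron-storing ferritin gene ftn-1 had 58, 51.01 and 52.8 FPKM against 6.15 and 3.09 FPKM, a log2 change of 3.34, and ftn-2 rose by 0.52 from a higher level at 50 mM, with 303, 299 and 293 FPKM at 500 mM against 220 and 196 FPKM. Of 14 classic DAF-16 targets, some of which also stand in the lists above, 10 rose, 2 fell and 8 were induced, with a median log2 change of 1.17 (none fell without replicate 1 at 50 mM). Among them the transhydrogenase gene nnt-1 had 18.4, 17.6 and 17.5 FPKM against 7.04 and 6.02 FPKM and the linker histone gene hil-1 rose by 0.79 on the log2 scale without reaching the induced class.

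Small secreted peptides of the fungus-induced protein (FIP) family gave both some of the largest rises and some of the largest falls. Of 17 tested members, 6 rose and 11 fell, so each of them passed the test, and the median log2 change was -1.09. The highest was fipr-22, at 212, 194 and 228 FPKM at 500 mM and 5.70 and 3.6 FPKM at 50 mM (log2 change 5.25, SE 0.17, limma adjusted p = 1.94e-08). Induced too were fipr-23 (log2 change 4.92), fipr-26 (4.39) and fipr-24 (4.1), while fipr-1 fell to 3.08, 1.29 and 4.54 FPKM at 500 mM, against 43.1 and 30.3 FPKM at 50 mM (log2 change -3.32, SE 0.33, limma adjusted p = 4.04e-05). fipr-22 and fipr-23 are close neighbours of similar kind, and how reads were split between such copies is uncertain.

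The nlp and caenacin (cnc) peptides of the epidermis, which kill microbes in larvae and adults, divided likewise. Of 19 tested genes 9 rose and 5 fell, with 5 induced and 3 repressed. cnc-11 had 51.7, 41.6 and 50.2 FPKM at 500 mM and 1.08 and 0.76 FPKM at 50 mM, a log2 change of 4.67. nlp-29, an epidermal gene that salt is known to raise in later stages, had 341, 313 and 431 FPKM against 179 and 152.2 FPKM (log2 change 1.11, SE 0.16, limma adjusted p = 0.00035), and nlp-31 had 185, 158 and 168 FPKM against 51.7 and 49.6 FPKM. nlp-32 rose by 2.21 and cnc-6 by 1.08 on the log2 scale. On the other side nlp-26 fell to 0.93, 2.28 and 3.72 FPKM at 500 mM, against 18.99 and 12.9 FPKM at 50 mM, cnc-2 fell by 1.82 on the log2 scale, and nlp-25 fell by 1.22.

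The 10 genes with the largest gain in mean FPKM were clec-266, F48D6.4, M60.4, icl-1, lea-1, dap-1, cht-1, asns-2, pgph-3 and far-3. The C-type lectin gene clec-266 had 1659, 1493 and 1568 FPKM at 500 mM and 667 and 652 FPKM at 50 mM, a log2 change of 1.25. icl-1, whose bifunctional enzyme runs the glyoxylate cycle that turns fat into sugar, had 684, 559 and 651 FPKM against 194 and 185 FPKM (log2 change 1.73, SE 0.08, limma adjusted p = 1.78e-07). Asparagine synthetase asns-2 had 637, 611 and 629 FPKM against 280 and 205 FPKM, and the chitinase gene cht-1, whose enzyme cuts the chitin of the eggshell layer and cuticle, had 604, 492 and 534 FPKM against 142.1 and 144 FPKM. In these 4 genes the lowest 500 mM library had at least 2 times the highest 50 mM library. dap-1 rose by 2.70 and far-3, a fatty acid and retinol-binding protein gene, by 3.07 on the log2 scale.

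Most glycolysis and propionate breakdown genes rose, and most genes of the other fuel lists did not. For comparison, 25.3% of all tested genes rose and 26% fell. Of 21 genes of glycolysis and gluconeogenesis 14 rose and none fell, with a median log2 change of 0.38. The hexokinase gene hxk-1, for the first step of glycolysis, had 58.7, 49.6 and 52.0 FPKM at 500 mM and 20.6 and 21.4 FPKM at 50 mM (log2 change 1.30), and gpd-1 had 28.4, 20.3 and 11.9 FPKM against 7.56 and 10.5 FPKM. The gluconeogenic pck-2 rose by 0.90, and ldh-1 by 0.42 on the log2 scale. Of 13 genes of propionate breakdown 12 rose and none fell, with a median of 0.61 and 3 induced: acdh-1, the first enzyme of the alternative propionate route, had 31.6, 30.2 and 27.2 FPKM against 0.83 and 3.13 FPKM, acdh-2 had 26.3, 7.89 and 16.13 FPKM against 0.54 and 0.37 FPKM, and hphd-1 had 37.4, 38.2 and 39.4 FPKM against 15.03 and 12.96 FPKM. Of 17 genes of fatty acid synthesis and desaturation 6 rose and 8 fell (5 fell when either 50 mM replicate was left out), and the palmitate desaturase fat-5 was induced, at 3.08, 2.54 and 2.32 FPKM against 0.44 and 0.29 FPKM. Of 22 citric acid and glyoxylate cycle genes 7 rose and 1 fell (2 fell without replicate 2 at 50 mM), and of 40 respiratory chain genes 5 rose and 3 fell (1 fell without replicate 1 at 50 mM).

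Most proteasome subunit genes rose by small amounts. The proteasome is the chamber that degrades ubiquitin-tagged proteins. Of 32 tested subunit genes 23 rose and none fell, where 25.3% of all tested genes rose, with a median log2 change of 0.31, and none reached the induced class. rpn-9 had 63.5, 62.4 and 53.95 FPKM at 500 mM and 37.1 and 42.6 FPKM at 50 mM (log2 change 0.58), and rpt-3 had 54, 53.5 and 43.6 FPKM against 36.9 and 40.6 FPKM (0.36). Without replicate 1 at 50 mM, 11 of the 32 rose. Of 77 ribosomal protein genes none rose and 16 fell, where 26% of all tested genes fell, with a median log2 change of -0.13, but 3 fell without replicate 1 at 50 mM, 9 without replicate 1 or replicate 2 at 500 mM and 2 after quantile normalization. The rRNA genes rrn-1.1 and rrn-1.2, identical copies with the same value in each library, had 467, 189 and 314 FPKM at 500 mM and 614 and 697 FPKM at 50 mM.

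Among gene name families with at least 10 tested members, the largest induced shares were found for F-box genes of the fbxb group (38 of 92, 41.3%), sdz (9 of 23, 39.1%), skr (7 of 19, 36.8%), fipr (5 of 14, 35.7%), acdh (3 of 11, 27.3%), btb (3 of 13, 23.1%), fbxc (7 of 40, 17.5%) and hsp (4 of 23, 17.4%), against 2.89% of all tested genes. F-box, BTB and Skp1-related (skr) proteins are substrate adaptors and linkers of cullin ubiquitin ligases, and sdz genes were named as zygotic genes that depend on SKN-1 in the early embryo. These values varied between libraries. fbxb-26 had 15.5, 7.21 and 11.01 FPKM at 500 mM and 0.94 and 2.80 FPKM at 50 mM, skr-9 had 36.4, 15.6 and 17.9 FPKM against 3.05 and 6.23 FPKM, and sdz-28 had 27.2, 11.9 and 14.3 FPKM against 3.72 and 6.05 FPKM. In all 3 genes replicate 1 was highest at 500 mM and lowest at 50 mM, and the groups did not overlap. sdz-24 was repressed, at 8.52, 7.80 and 10.3 FPKM against 36.2 and 24.6 FPKM. The induced fbxb genes numbered 22 without replicate 1 at 500 mM, 24 without replicate 1 at 50 mM and 54 of 92 without replicate 2 at 500 mM, and the induced sdz and skr genes numbered 5 and 4 without replicate 1 at 500 mM. The induced fbxc genes numbered 3 without replicate 1 at 500 mM, and 1 btb gene was induced without replicate 1 at 50 mM.

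Transcripts of the early embryo were higher in salt as well. Of 29 tested genes for maternal RNA-binding, germ plasm and eggshell proteins 20 rose and none fell, with a median log2 change of 0.89, and 11 were induced. Their summed level was 508, 379 and 255 FPKM at 500 mM and 166 and 219 FPKM at 50 mM, so replicate 3 at 500 mM lay close to replicate 2 at 50 mM, and without replicate 1 at 50 mM 6 of the 29 rose. pos-1, which encodes an RNA-binding protein of early blastomeres, had 82.7, 65.9 and 27.8 FPKM at 500 mM and 10.5 and 23.7 FPKM at 50 mM (log2 change 1.69, SE 0.41, limma adjusted p = 0.00576), and the polarity gene mex-5 rose by 1.22 on the log2 scale. The germline repressor gene pie-1 rose by 1.06, the germ plasm gene nos-2 by 1.42 and the eggshell gene cpg-1 by 1.44 on the log2 scale, while the groups overlapped for oma-1 (17.2, 10.1 and 5.72 FPKM against 3.61 and 6.41 FPKM). In bulk samples more embryos of an early stage and more RNA per embryo cannot be told apart, nor can fewer cells of a type and less RNA per cell.

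Cell division genes rose as a block of small changes, where 25.3% of all tested genes rose and 26% fell. Of 40 tested genes 37 rose and 1 fell, with a median log2 change of 0.48, and their summed level was 3453, 3259 and 2915 FPKM at 500 mM and 2205 and 2458 FPKM at 50 mM, with no overlap. rnr-1, which encodes the large subunit of ribonucleotide reductase that makes DNA precursors, was induced at 89.6, 78.7 and 68.8 FPKM against 35.2 and 39.7 FPKM, and the mitotic kinase gene cdk-1 rose by 0.83 on the log2 scale. The cell cycle inhibitor gene cki-1 had 241, 273 and 232 FPKM against 260 and 261 FPKM, with overlapping groups. Transcription factors that specify lineages gave no common direction: 6 of 29 rose and 5 fell, the endoderm gene end-1 was induced at 2.85, 1.04 and 1.99 FPKM against 0.38 and 0.44 FPKM, and the intestinal elt-2 (log2 change -0.01), the muscle gene hlh-1 (-0.05) and the pharyngeal pha-4 (0.02) did not pass. Without replicate 1 at 50 mM 2 of the 29 rose, and without replicate 2 at 50 mM 3 fell.

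Late tissue genes were lower over the same libraries. Of 21 neuronal genes 17 fell and none rose (median log2 change -0.43), and of 26 muscle genes 19 fell and none rose (median -0.38; 1 rose without replicate 3 at 500 mM). The neuronal sum was 990, 962 and 1036 FPKM at 500 mM and 1348 and 1235 FPKM at 50 mM. The synaptic vesicle gene rab-3 had 74.1, 69.7 and 87.4 FPKM against 146.99 and 128 FPKM, and the troponin gene tni-3 had 41.2, 35.4 and 51.1 FPKM against 77.2 and 58.2 FPKM, but the myosin heavy chain genes unc-54 and myo-3 had overlapping groups, as did the synaptobrevin gene snb-1. Of 30 FMRFamide-like neuropeptide genes 26 fell and none rose, with flp-8 at 11.8, 9.58 and 11.5 FPKM against 25.4 and 17.99 FPKM. Without replicate 1 at 50 mM the falls numbered 9 of 21 for neurons, 4 of 26 for muscle and 13 of 30 for these peptides. The part that the share of younger and older embryos had in the changes of these lists was not tested.

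**Figure D3:**
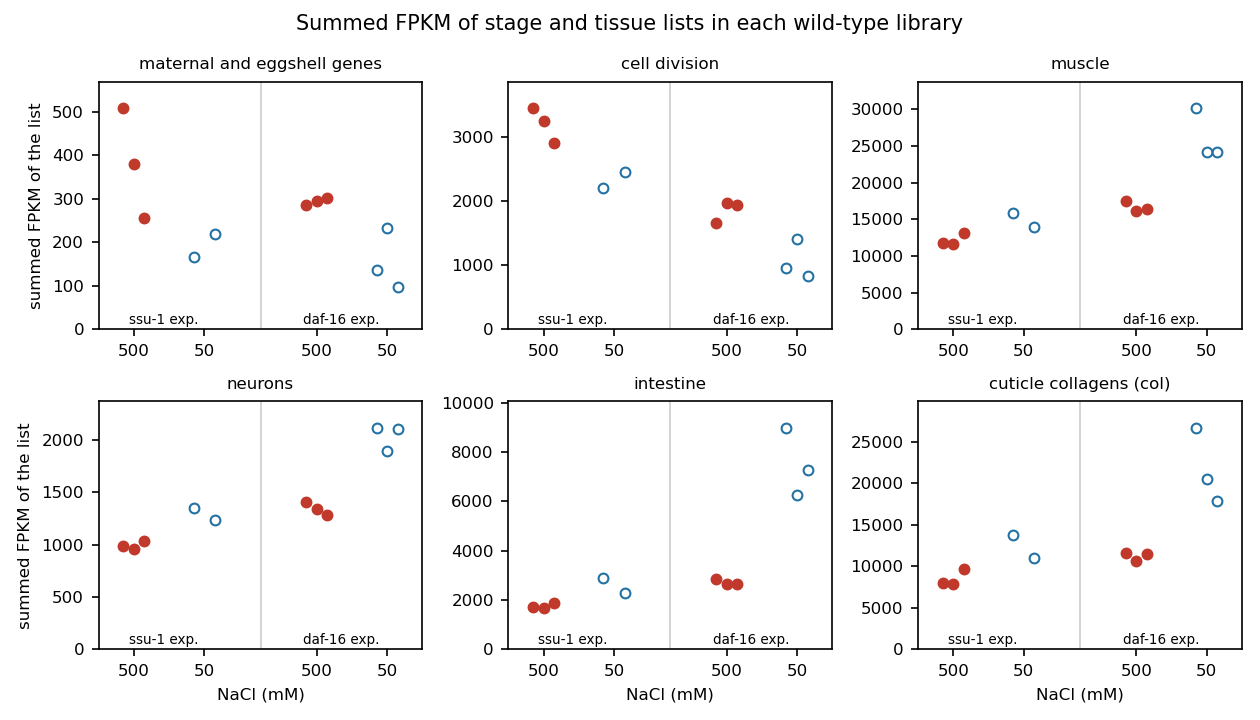
Summed FPKM of 6 lists (vertical axes from 0) in each wild-type library, filled red points at 500 mM and open blue points at 50 mM NaCl, with the ssu-1 experiment left and the daf-16 experiment right of the grey line. Maternal and cell division sums were higher and muscle, neuronal, intestinal and collagen sums lower at 500 mM in both, with maternal values of 255 to 508 FPKM at 500 mM and 166 to 219 FPKM at 50 mM in the ssu-1 experiment.

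Cuticle collagens headed the repressed genes. The larval cuticle is laid down by the epidermis late in embryogenesis from collagens made in waves. Of 88 tested col genes 42 fell and 5 rose, 16 were repressed and 1 was induced, and the median log2 change was -0.32. col-93 had 0.57, 0.41 and 0.53 FPKM at 500 mM and 20.2 and 20.7 FPKM at 50 mM (log2 change -3.84, SE 0.13, limma adjusted p = 2.98e-08). col-147 had 5.99, 5.57 and 8.76 FPKM against 127 and 83.4 FPKM (-3.76), and col-160 had 17.5, 17.8 and 26.1 FPKM against 160 and 107 FPKM (-2.64). The induced one was col-108, at 12.11, 8.56 and 8.88 FPKM against 0.49 and 0.36 FPKM. Abundant members with large losses were col-166, at 233, 229 and 313 FPKM against 662 and 505 FPKM, col-94 and col-130. Without replicate 1 at 50 mM 25 of the 88 fell.

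Collagens named for body shape and the genes of the apical matrix did not share a direction. Their counts lay near the shares of all tested genes, where 25.3% rose and 26% fell. The furrow collagens, which form the circumferential grooves whose loss switches on the glycerol response, had 0 of 5 genes past the limma test (2 of the 5 at an unadjusted p under 0.05, both lower at 500 mM; 1 fell without replicate 2 there). dpy-7 had 268, 312 and 305 FPKM at 500 mM and 301.1 and 336 FPKM at 50 mM, with overlapping groups. dpy-10 had 310, 375 and 340 FPKM against 376 and 421 FPKM (log2 change -0.22, limma adjusted p = 0.0611). Of 8 tested shape collagens 2 rose and 2 fell (1 rose without replicate 1 at 50 mM, and 1 fell without replicate 2 there). lon-3 was repressed (log2 change -1.11), dpy-5 was induced (1.08) and sqt-2 rose by 0.54 on the log2 scale. sqt-3 fell by 0.24 on the log2 scale and dpy-17, at 3090, 3478 and 3390 FPKM against 3589 and 3731 FPKM, did not pass. Of 21 genes for making the cuticle and apical matrix 6 rose and 4 fell (3 rose without replicate 1 at 50 mM and 4 without replicate 3 at 500 mM), and noah-1 (log2 change 0.06) and noah-2 (0.06) had overlapping groups. Of 40 hedgehog-related genes, a family expanded in nematodes and made largely in epidermis, 25 fell and 1 rose (16 fell and none rose without replicate 1 at 50 mM, and none rose without replicate 2 at 500 mM). grl-21 fell to 24.8, 16.98 and 29.2 FPKM at 500 mM, against 68.02 and 50.7 FPKM at 50 mM, and wrt-8 and grd-2 were repressed too.

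Intestinal markers and several families of secreted effectors had more falls than rises. Of 15 intestinal markers 10 fell and 3 rose, with a summed level of 1675 to 1887 FPKM at 500 mM and 2296 to 2868 FPKM at 50 mM. The cathepsin B-like protease gene cpr-1 had 10.5, 11.7 and 11.2 FPKM at 500 mM and 54.6 and 43.5 FPKM at 50 mM (log2 change -2.04), the peptide transporter gene pept-1 had 19.6, 20.04 and 22.3 FPKM against 53.95 and 45.5 FPKM, and the filament gene ifb-2 fell by 0.67 on the log2 scale. The gut esterase gene ges-1 instead rose, at 9.38, 11.4 and 10.8 FPKM against 8.61 and 6.75 FPKM. The aspartyl protease gene asp-6 (180, 163 and 210 FPKM against 497 and 337 FPKM) and the galectin gene lec-10 were among the largest losses in FPKM.

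Of 81 C-type lectin genes, many of them intestinal and changed by infection, 55 fell and 10 rose, and 18 were repressed and 5 induced (median log2 change -0.58). The falls numbered 46 without replicate 1 and 45 without replicate 2 at 500 mM, and the median was -0.48 without replicate 1 at 50 mM. Without replicate 1 at 50 mM the rises numbered 5 and the induced 3. The summed level of these lectins was higher at 500 mM, at 2397 to 2697 FPKM, against 1636 to 1869 FPKM at 50 mM. clec-186 had 0.40, 0.58 and 0.56 FPKM at 500 mM and 9.97 and 4.02 FPKM at 50 mM (log2 change -2.30), and clec-74 had 0.33, 0.18 and 0.43 FPKM against 8.07 and 2.93 FPKM, whereas clec-266, the induced gene with the largest gain in mean FPKM, was among the exceptions. Lysozymes cleave bacterial walls, and 5 of 10 fell and 2 rose (3 fell without replicate 1 at 50 mM, and 1 rose without replicate 2 there or replicate 3 at 500 mM). ilys-5 had 0.19, 0.57 and 0.27 FPKM against 10.5 and 6.33 FPKM, lys-2 had 5.39, 4.14 and 4.74 FPKM against 26.9 and 20.2 FPKM (log2 change -2.08), and lys-1 fell by 1.31. The induced ilys-6 had 3.37, 3.46 and 2.02 FPKM at 500 mM and was listed at 0 in each 50 mM library. The saposin-like genes spp-23, at 0.42, 0.54 and 1.35 FPKM against 15.5 and 12.19 FPKM, and spp-1 (-2.04), and the infection-responsive dod-24, at 1.76, 1.32 and 1.58 FPKM against 29.8 and 9.62 FPKM, were repressed, and so were the pharyngeal gland gene phat-7 (log2 change -3.42), spig-11, C32H11.4, D2023.1, epic-2 and eppl-1.

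Among detoxification genes, glutathione transferases had more falls than rises. Among gene name families with at least 10 tested members, the largest repressed shares were found for fipr (8 of 14, 57.1%), gst (10 of 36, 27.8%), aqp (3 of 11, 27.3%), spig (3 of 11, 27.3%), pgp (3 of 12, 25%), clec (18 of 83, 21.7%), spp (4 of 20, 20%) and srlf (3 of 16, 18.8%), against 2.56% of all tested genes. Without replicate 1 at 50 mM the repressed gst and clec genes numbered 6 and 10. Of 36 glutathione transferase genes, which attach glutathione to reactive compounds, 20 fell and 6 rose, and 10 were repressed and 2 induced (12 fell without replicate 1 at 50 mM). gst-14 had 0.47, 0.12 and 0.37 FPKM at 500 mM and 11.2 and 5.05 FPKM at 50 mM, and gst-33 had 0.94, 0.83 and 1.21 FPKM against 11.6 and 9.90 FPKM (log2 change -2.56, SE 0.17, limma adjusted p = 1.87e-06). gst-15, which lies beside the repressed gst-14, went the other way, at 51.9, 51.5 and 55.3 FPKM at 500 mM and 10.6 and 8.70 FPKM at 50 mM (log2 change 2.35), and gst-29 was the second induced member. The summed level of the glutathione transferases overlapped between salts, at 818 to 946 FPKM at 500 mM and 795 to 1074 FPKM at 50 mM. Of 50 cytochrome P450 genes 14 fell and 12 rose, shares close to those of all tested genes (26% fell and 25.3% rose), with cyp-13A5 at 0.45, 0.69 and 0.40 FPKM against 6.90 and 9.97 FPKM and cyp-13B1 at 46.3, 32.9 and 46.9 FPKM against 14.4 and 12.27 FPKM. The rises numbered 6 without replicate 1 at 500 mM and 7 without replicate 2 at 50 mM. Of 54 UDP-glucuronosyltransferase genes 22 fell and 12 rose, with ugt-41 and ugt-13 among 8 repressed members and 2 induced. The efflux pump genes pgp-1, at 0.99, 0.95 and 1.30 FPKM against 8.2 and 8.81 FPKM, and pgp-9 (log2 change -2.21) were repressed, and dhp-1, for the pyrimidine-degrading dihydropyrimidinase, fell by 2.43.

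Genes for water and ion movement fell more often than they rose, where 26% of all tested genes fell and 25.3% rose. The median log2 change of the aquaporins was -0.43 with all libraries and -0.29 without replicate 1 at 50 mM. For the sodium pumps, exchangers and chloride channels it was -0.26 and -0.19. Of 11 aquaporin genes 6 fell and none rose (3 fell without replicate 1 at 50 mM). aqp-1, for a channel that carries glycerol as well as water, had 3.4, 2.55 and 3.89 FPKM at 500 mM and 15.2 and 13.2 FPKM at 50 mM (log2 change -1.84, SE 0.13, limma adjusted p = 3.74e-06), and aqp-4 (-1.19) and aqp-7 (-1.15) were repressed. aqp-8, of the excretory canal, fell by 0.56 on the log2 scale. The summed level of the aquaporin list overlapped between salts, at 3544 to 3758 FPKM at 500 mM and 3702 to 3925 FPKM at 50 mM. Of 24 genes for sodium pumps, exchangers and chloride channels 12 fell and 3 rose (5 fell without replicate 1 at 50 mM), with catp-3, of the sodium pump alpha subunit family, at 0.97, 0.63 and 1.06 FPKM against 6.46 and 6.36 FPKM and the sodium-proton exchanger gene nhx-9 at 7.96, 6.86 and 8.33 FPKM against 19.4 and 19.9 FPKM. The main sodium pump gene eat-6 fell by 0.27 on the log2 scale.

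Known regulators of the osmotic response moved by less than 1 log2 unit. Of 14 genes 6 fell and 3 rose, where 26% of all tested genes fell and 25.3% rose. OSM-7, OSM-8 and OSM-11 are secreted proteins that hold the glycerol response down, and their genes fell: osm-11 had 27.8, 29.6 and 31 FPKM at 500 mM and 61.9 and 47.8 FPKM at 50 mM (log2 change -0.86), osm-7 had 27.5, 22.3 and 29.6 FPKM against 51.2 and 42.2 FPKM (-0.80), and osm-8 fell by 0.42. osr-1, whose loss gives resistance to salt, fell by 0.43. In wild type of the daf-16 experiment osm-8 changed by 0.83 and osr-1 by 0.28 (interaction limma adjusted p = 0.00206 and 0.0496). osm-7 and osm-11 changed by -0.63 and -2.31 there. The kinase genes wnk-1 and gck-3, which act in a cascade that controls cation and chloride transport, both rose by 0.24 on the log2 scale, and the chloride channel gene clh-3 had overlapping groups. ssu-1 itself had 2.83, 2.99 and 2.74 FPKM against 2.35 and 1.78 FPKM and did not pass (limma adjusted p = 0.124), nor did nhr-1, for a nuclear receptor placed with SSU-1 in this response (log2 change 0.13, limma adjusted p = 0.144). daf-12, for the receptor of dafachronic acids, fell by 0.51 on the log2 scale. Of 200 nuclear hormone receptor genes 75 fell and 23 rose (46 and 12 without replicate 1 at 50 mM, and 13 rose without replicate 2 there), with nhr-178 repressed and nhr-2 and nhr-57 induced.

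The genes of insulin-like signalling did not share a direction. Agonist peptides bind the receptor DAF-2, whose kinase cascade through AKT-1 keeps DAF-16 out of the nucleus. Of 18 tested insulin-like genes 6 fell and 1 rose, where 26% of all tested genes fell. ins-34 had 10.7, 5.19 and 6.42 FPKM at 500 mM and 93.1 and 98.7 FPKM at 50 mM (log2 change -3.57, SE 0.27, limma adjusted p = 5.74e-06). The genes for the agonists INS-6 and DAF-28 were repressed, ins-6 at 2.46, 2.58 and 2.65 FPKM against 8.93 and 9.20 FPKM and daf-28 at 1.36, 0.91 and 1.53 FPKM against 4.18 and 4.61 FPKM, and ins-4 fell by 0.95 on the log2 scale. The induced member was ins-13, at 2.97, 1.19 and 2.82 FPKM against 0 and 0.20 FPKM. Of 18 genes from the receptor to DAF-16, some of them ligands, 7 rose and 7 fell. daf-16 had 161, 163 and 157 FPKM against 123 and 124 FPKM (log2 change 0.37), akt-1 had 86.1, 78.5 and 82.4 FPKM against 44.6 and 41.9 FPKM (0.91, SE 0.06, limma adjusted p = 1.89e-06), and daf-2 rose by 0.29.

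Transcription factors of other stress pathways showed small changes, where 25.3% of all tested genes rose and 26% fell. Of 24 genes 3 rose and 5 fell (3 fell when either 50 mM replicate was left out, and 1 rose without replicate 2 at 50 mM, without replicate 1 at 500 mM or with the replicate block). The heat-shock factor hsf-1 (log2 change 0.11), skn-1 (-0.13), pqm-1 (0.09) and hlh-30 (0.05) did not pass, while zip-2, for an infection-responsive bZIP protein, rose by 0.60 on the log2 scale to 580, 518 and 520 FPKM at 500 mM, against 343 and 370 FPKM at 50 mM. Of those that fell, atf-4 had 144, 153 and 155 FPKM against 205 and 192 FPKM.

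**Figure D4:**
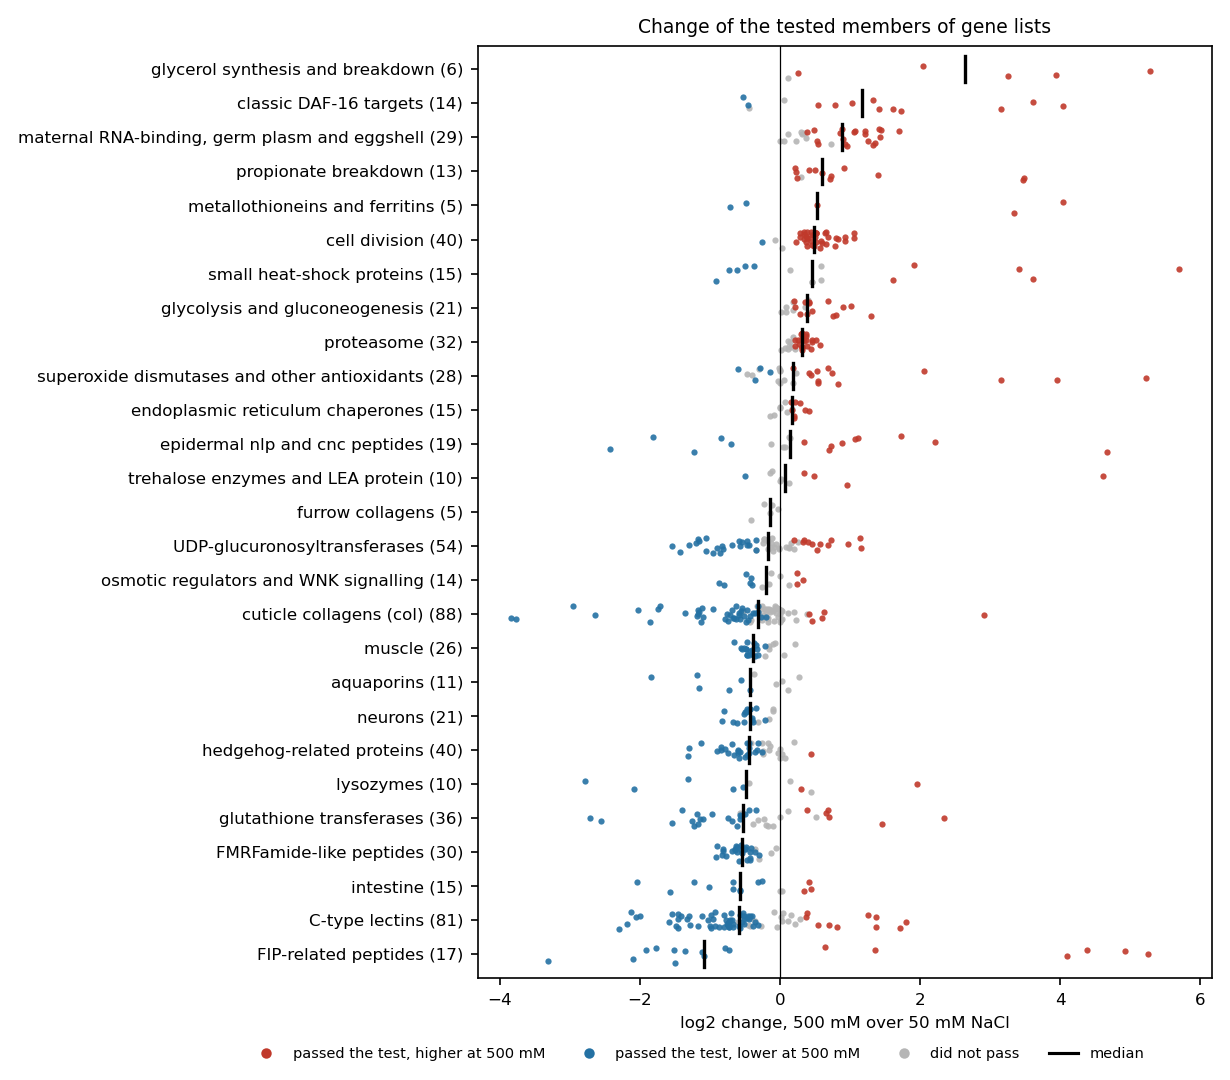
Log2 change (horizontal axis, 500 mM over 50 mM NaCl) of each tested member of 27 gene lists, with red and blue points for genes that passed the test higher or lower at 500 mM, grey points for those that did not, and a black bar at the median. Medians run from 2.65 for glycerol genes to -1.09 for FIP-related peptides, whose points lie at both ends.

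Genes of the same class often lay next to each other on the chromosomes, a pattern looked for after the values were seen. Of 395 induced coding genes, 110 (27.8%) had an induced gene as the next tested coding gene on at least 1 side, against 5.66% of all 13252 ordered genes. Runs of 3 or more numbered 13 and held 44 genes. The longest, of 6, ran C37A5.6, C37A5.5, fipr-23, C37A5.3, fipr-22 and fipr-24, the next, of 5, ran fbxb-17, fbxb-26, fbxb-25, fbxb-18 and fbxb-19, and a run of 3 held C54F6.15, C54F6.6 and C54F6.5. Of 348 repressed coding genes 72 (20.7%) had a repressed neighbour, against 5.07% of all ordered genes, with 6 runs such as col-168, col-169 and col-170, and gst-14, gst-12 and gst-16. Neighbours of 1 family can share sequence, and then reads may be split between them.

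The same salt exposure was applied to wild-type embryos in the daf-16 experiment of the series, in 3 libraries at 500 mM and 3 at 50 mM NaCl. Of the 403 induced genes 350 also passed with a rise there and 1 passed with a fall, and of the 357 repressed genes 346 also passed with a fall and 3 with a rise. The share of all tested genes that passed in each direction there was not counted, so these counts have no background beside them. The size of the response was compared by the interaction of experiment and salt. Over 14638 genes the log2 change was more positive in the ssu-1 experiment for 2135 (14.6%) and more negative for 2486 (17%) in limma at an adjusted p under 0.05. Without replicate 2 at 50 mM these were 1276 and 1309, and without replicate 1 there the second was 1623. Without the 2 libraries at 50 mM of the daf-16 experiment that carry another library number series the counts were 2732 and 3556.

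Falls were smaller in the ssu-1 experiment on the log2(FPKM + 1) scale, which understates falls of genes with low FPKM. How far that scale shaped the difference was not tested, since the interaction was fitted only with 1 FPKM added. The median change of the repressed genes was -1.29 in the ssu-1 experiment, where they were chosen, and -2.74 in the daf-16 experiment, and 256 of the 357 passed the interaction with the larger fall in the daf-16 experiment, while 11 passed with a smaller fall or a change of the other sign there. Among induced genes, with medians of 1.33 and 1.44, 109 of 403 passed with the larger rise in the daf-16 experiment, 21 with a smaller rise or another sign there, and 273 did not pass. gpdh-1 changed by 5.28 in both (interaction limma adjusted p = 0.995), mtl-1 by 4.04 and 4.18, and hsp-16.20 by 3.41 and 3.47. hsp-16.21 rose by 5.69 in the ssu-1 experiment against 8.97 in the daf-16 experiment (difference -3.28, SE 0.27, limma adjusted p = 3.42e-05), and col-93 fell by 3.84 on the log2 scale against a change of -7.57 there. gpdh-2 had the larger rise in the ssu-1 experiment, at 2.04 against 1.09 (limma adjusted p = 0.000905), as did tatn-1, for tyrosine aminotransferase, at 1.66 against -0.06, and ins-34 had the larger fall, at -3.57 against -1.07. tatn-1 was picked after its values were seen.

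Whole lists differed too. Furrow collagens had a median log2 change of -0.14 in the ssu-1 experiment and 1.64 in the daf-16 experiment, with 4 of 5 genes past the interaction test, dpy-7 among them (-0.11 against 1.86, limma adjusted p = 0.000718). Proteasome genes had medians of 0.31 and -0.09, with 17 of 32 past it, and translation factors had 0.13 and -0.33, with 18 of 33 past it. The furrow collagens that passed had the more negative change in the ssu-1 experiment, as 17% of all genes did. The proteasome and translation factor genes that passed had the more positive change there, as 14.6% of all genes did. hsp-4 changed by 0.10 in the ssu-1 experiment and by -2.06 in the daf-16 experiment. Glutathione transferases had medians of -0.53 and -1.84, and 23 of 36 passed with the less negative change in the ssu-1 experiment, where 14.6% of all genes did so. Their summed level at 50 mM was 795 to 1074 FPKM in the ssu-1 experiment and 3311 to 5216 FPKM in the daf-16 experiment. The wild-type embryos of the 2 experiments differed in stage lists at the same salt. At 50 mM the cell division sum was 2205 to 2458 FPKM in the ssu-1 experiment and 839 to 1411 FPKM in the daf-16 experiment, and the neuronal sum was 1235 to 1348 FPKM and 1893 to 2118 FPKM. The experiment, its library preparation and the stage of its embryos cannot be told apart.

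**Figure D5:**
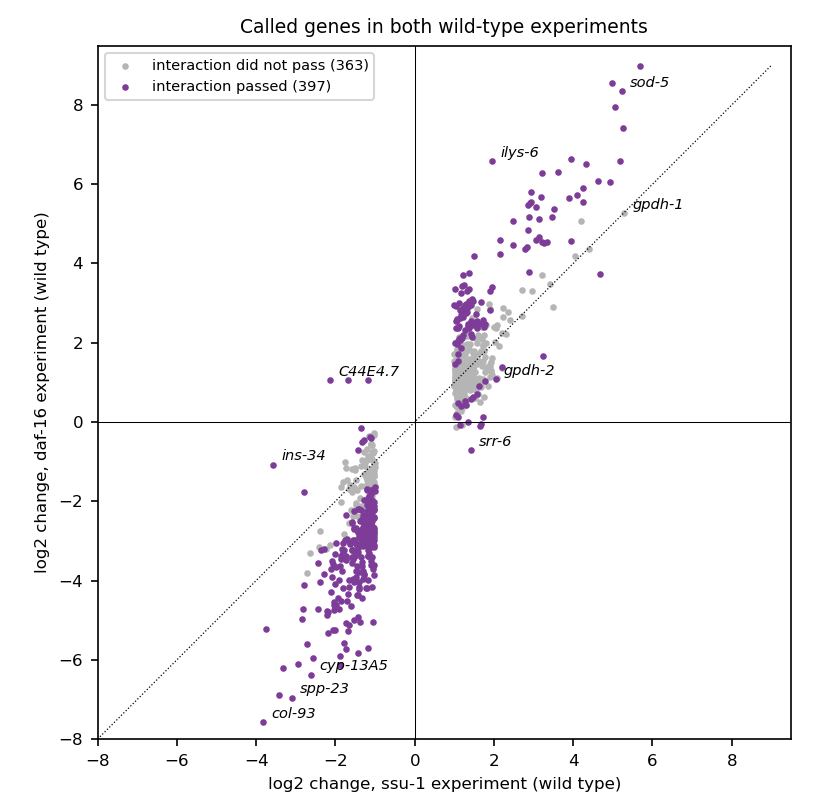
Log2 change of the 760 called genes in the ssu-1 experiment (horizontal axis) and in wild type of the daf-16 experiment (vertical axis), purple where the interaction of experiment and salt passed (397 genes) and grey where it did not (363), with the dotted line at equal change. Most repressed genes lie below the line, and the calls were made on the horizontal axis alone.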

How the data were processed

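RNA was sequenced from embryos after 3 h on agar with 500 mM or 50 mM NaCl (strand-specific libraries, paired reads). The authors aligned reads to ce10 with Bowtie 1.0.1, quantified WormBase WS235 genes with RSEM 1.2.15 and deposited FPKM values for 45460 named genes in 22 libraries, of which 23483 genes were at 0 throughout. Another row without a gene name was left out. Values were used as deposited, read counts and the depth are not in that table, and the approximate depths came from the spacing of low values of genes with a single transcript. Symbols came from the RefSeq and Ensembl gene tables of WBcel235 for 44079 and 856 identifiers, without coordinates, since the build differs, and 525 had no match. The order of neighbouring genes came from the RefSeq table alone.

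Genes with at least 1 FPKM in at least 2 of the 10 libraries of the ssu-1 experiment were tested on log2(FPKM + 1) with limma 3.58.1 in R 4.3.3, with a mean-variance trend and Benjamini-Hochberg adjustment, checked on simulated data. Because the values are FPKM, the count model that the study used was not used here. Differences between experiments came from the interaction term in a limma fit of 11 wild-type libraries. A call needed an adjusted p under 0.05 and a log2 change beyond 1 in either direction. No source used here says whether replicates came from separate cultures, so p-values measure only the spread between these libraries, which may be technical.

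Genes named in the text were the 20 induced genes with the largest rise and the 20 repressed with the largest fall, the 10 called genes with the largest gain and the 10 with the largest loss in mean FPKM, fixed key members of 50 gene lists with up to 6 further members that passed with the largest change, and up to 3 members of each name family with the largest change. The comparison, the lists and these rules were chosen with earlier results of these data known. Alternatives were another pseudocount, filter, scaling, variance model, fold rule and set of libraries, a replicate block, and leaving out each library in turn.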

Additional observations from a re-analysis of the deposited data

Results flagged for a closer look

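For 12 called genes the response in the ssu-1 experiment was opposite to, or nearly absent from, wild type of the daf-16 experiment, with an interaction of experiment and salt past the limma test. They were chosen after the values were seen, as called genes whose change in the daf-16 experiment was of the other sign or under 0.2 log2 units in size. Each difference below is the log2 change in the ssu-1 experiment minus that in the daf-16 experiment.

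Of those that rose in the ssu-1 experiment, srr-6 changed by 1.42 against -0.71 (difference 2.131, limma adjusted p = 0.00117) and C23H5.8 by 1.65 against -0.11 (1.762). tatn-1, for the enzyme that starts tyrosine breakdown, changed by 1.66 against -0.06 (1.717, limma adjusted p = 1.15e-05), and the epidermal peptide gene nlp-31 changed by 1.72 against 0.11 (1.61). F32H5.3 had a difference of 1.341, F09B12.7 of 1.199, the acyl-CoA dehydrogenase gene acdh-12 of 0.9676 and the ribonucleotide reductase gene rnr-1 of 0.8776.

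Of those that fell in the ssu-1 experiment, C44E4.7 changed by -2.14 against 1.06 in the daf-16 experiment (difference -3.199, limma adjusted p = 0.00182), C44E4.2 by -1.68 against 1.06 (-2.736) and C03C10.9 by -1.17 against 1.07 (-2.24), while the collagen gene col-145 changed by -1.36 against -0.16 (-1.2). C44E4.7 had 0.90, 3.95 and 0.51 FPKM at 500 mM and 9.73 and 9.63 FPKM at 50 mM in the ssu-1 experiment. C44E4.7 and C44E4.2 have the same prefix in their sequence names. Whether they share sequence was not examined, and if they do, how reads were split between them is uncertain. In these 12 genes the experiment, its library preparation and the stage of its embryos cannot be told apart.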

How the results depend on the processing

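Among the 391 genes taken by the naming rule or named beside it, 358 passed the test and 282 of these passed with the same sign in each alternative that tested them, and no passing change turned its direction in any. With a pseudocount of 0.1 the counts were 621 induced and 662 repressed genes, with a minimum of 5 FPKM 226 genes were repressed, and without a fold limit 3526 rose and 3620 fell. A ratio of the means above 2, with 1 FPKM added to the lower group, gave 232 repressed genes. Leaving out 1 library at a time gave 299 to 474 induced and 267 to 514 repressed genes, 1276 to 1846 genes with a more positive and 1309 to 1941 with a more negative change in the ssu-1 experiment, and with 1 library left at 50 mM its spread was taken from the other groups. Quantile normalization gave 444 induced and 318 repressed genes. Deviations from the group mean in same-numbered wild-type libraries correlated at -0.246 for replicate 1 and 0.097 for replicate 2. The largest r, 0.371, was between replicate 1 at 50 mM and replicate 3 at 500 mM. The 2 libraries at 50 mM deviate as mirror images, so these values cannot decide whether libraries were paired. The numbers were not taken as pairs, and the fit with the replicate block gave 431 induced and 383 repressed genes. The precision is limited by the 2 libraries at 50 mM and, for genes near 1 FPKM, by few fragments.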

Other observations

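Of 23 genes for the nucleolus and ribosome synthesis 7 rose and 1 fell at 500 mM NaCl (2 fell without replicate 2 at 500 mM, and none when any other of the 5 libraries was left out), with a median log2 change of 0.09, and fib-1, for the rRNA-modifying protein fibrillarin, had 409, 483 and 444 FPKM at 500 mM and 489 and 494 FPKM at 50 mM (limma adjusted p = 0.0911). Of 33 translation factor genes 9 rose and 2 fell, but 5 rose without replicate 1 at 50 mM 4 fell without replicate 2 at 500 mM, and none fell when any other of the 5 libraries was left out. Of 11 tubulin genes 3 rose and 5 fell, and the falls numbered 2 without replicate 1 at 50 mM and 3 without replicate 2 at 50 mM or replicate 1 at 500 mM, while none rose without replicate 1 at 50 mM and 1 rose without replicate 1 or replicate 2 at 500 mM. Of 49 histone genes 4 rose and 4 fell, with a median of 0.24, and 9 rose after quantile normalization or without replicate 2 at 50 mM, and 7 without replicate 2 at 500 mM.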
